A study of Mus musculus with 9 samples.

Results

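Cd69, Icos, Crtam, Cd44 and Cd83, whose products mark activated T cells at the cell surface, were followed across vehicle and Compound 10, before and after stimulation. They were chosen by name and are 5 of the 45321 annotated genes with a transcript in the tables. All 5 passed the filter on low counts that left 14011 genes for testing. The cells were splenic CD4+ T cells of C57BL/6 mice, an inbred laboratory strain, purified without antibody on the CD4+ cells. They were held for 1 h in the solvent DMSO (vehicle) or in 12.5 µM Compound 10, a small molecule that the series describes as an inhibitor of the NFAT:AP-1 complex. They were then left unstimulated or received 10 nM PMA, an activator of protein kinase C, and 1 µM ionomycin, a calcium ionophore, for 2 h. The 4 groups held 9 libraries: 2 of unstimulated vehicle, 2 of unstimulated compound 10, 2 of stimulated vehicle and 3 of stimulated compound 10. PMA and ionomycin act below the T cell receptor, so the stimulus of these groups did not pass through the receptor itself.

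As background, a resting T cell that is triggered remakes its surface within hours. Cd69 is a C-type lectin that appears early and draws the egress receptor S1pr1 off the membrane, which holds the cell in the lymphoid organ. Icos is a relative of Cd28 that signals through PI3-kinase when it meets Icosl, and Crtam is an adhesion receptor for Cadm1 that also marks CD4+ cells of cytotoxic character. Cd44 is the receptor for hyaluronan and stays high on memory cells. Cd83 is best known from mature dendritic cells, where it keeps MHC class II and Cd86 at the surface by opposing the ubiquitin ligase March1.

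The libraries held 10669821 to 21852830 estimated counts, and stimulation and compound separated them on the first and second principal components (41.3% and 22.3% of the variance). Ribosomal RNA took 26.3% of the counts of unstimulated vehicle library 2 and 13.8% of stimulated vehicle library 2, against 1.78% to 9.66% in the other libraries. Both stand apart in this, so each test of the 5 genes and of the other listed genes was also run without them. Such a fit keeps library 1 alone in each vehicle group, so it gives the size of a change and is a weak check of a call. The 8 genes listed for CD4+ T cells summed to between 759 and 2094 CPM (counts relative to the scaled library size). They include genes common to all T cells, such as Cd3e and Trac, and Cd4 itself stood at 77.2 to 166 CPM. With compound 10 in stimulated cells 4 of the 8 were called higher and 1 lower, beside 11.7% and 11.4% of all genes. The sum there was 1622 to 2005 CPM in vehicle and 2034 to 2094 with compound 10. In unstimulated cells 4 of the 8 were called higher with compound 10 and none lower, beside 4.45% and 2.91% of all genes. The sum before stimulation was 759 to 874 CPM in vehicle and 1190 to 1344 with compound 10. The part of this shift in the results for the 5 genes was not tested. Summed B cell markers (8 genes) lay between 23.0 and 64.5 CPM, monocyte, macrophage or dendritic cell markers (10 genes) between 10.1 and 15.1 CPM, and CD8+ T cell markers (2 genes) between 4.43 and 7.31 CPM. Natural killer cell markers (8 genes) summed to 8.13 to 11.4 CPM in unstimulated vehicle and 17.2 to 18.2 with compound 10. After stimulation they summed to 19.4 to 21.4 CPM in vehicle and 22.0 to 31.7 with compound 10. Eomes, which CD4+ T cells can also express, held 14.3 and 10.3 CPM of the sum in stimulated vehicle. Without it the other 7 summed to 4.90 to 6.55 CPM in vehicle and 12.01 to 13.7 with compound 10 before stimulation, and to 7.10 to 9.11 CPM and 18.8 to 25.8 after it, with no overlap between vehicle and compound 10 in either state. Neutrophil markers (6 genes) summed to at most 6.84 CPM and erythroid cell or platelet markers (7 genes) to at most 21.3 CPM. Markers without a count in any library of a group included Cd8a in unstimulated compound 10, Ly6g in both compound groups, and Adgre1 and S100a8 in stimulated vehicle. In bulk RNA, fewer cells that carry a transcript and less transcript per cell cannot be told apart. No label ties a library to an animal or culture, so the p-values below reflect the spread among these libraries alone, and that spread may be technical.

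Stimulation in vehicle raised all 5 genes, from 2.96-fold for Cd44 to 90.2-fold for Crtam, where 14.4% of all genes tested were called higher and 13.8% lower. Under compound 10, stimulation raised 4 of the 5, against a background of 11.0% higher and 10.8% lower, and Cd44 was not called. In stimulated cells compound 10 lowered 2 of the 5, Icos to 59.6% and Crtam to 17.2% of vehicle, and raised none, where 11.4% of all genes were called lower and 11.7% higher. In unstimulated cells compound 10 changed none of the 5 in edgeR's test, where 4.45% of all genes were called higher and 2.91% lower. At an unadjusted p under 0.05, 2 of the 5 passed there (Crtam and Cd44, both higher), and neither DESeq2 nor limma called any. The background count there, 623 higher and 408 lower, moved with single libraries. It fell to 150 and 113 or to 152 and 117 without vehicle library 1 or 2 of the unstimulated cells, and to 112 and 62 or to 197 and 81 without compound 10 library 1 or 2. The interaction, which is the difference between the compound's effects in stimulated and unstimulated cells, was called for Crtam, where 0.607% of all genes had a lower and 0.421% a higher interaction. The median change of the 5 was 2.02 (log2) with stimulation in vehicle and 1.83 under compound 10, beside -0.05 and 0.0036 over all genes tested. For compound 10 the medians were -0.40 in stimulated and 0.39 in unstimulated cells, beside 0.0019 and -0.01 over all genes.

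**Figure D1:**
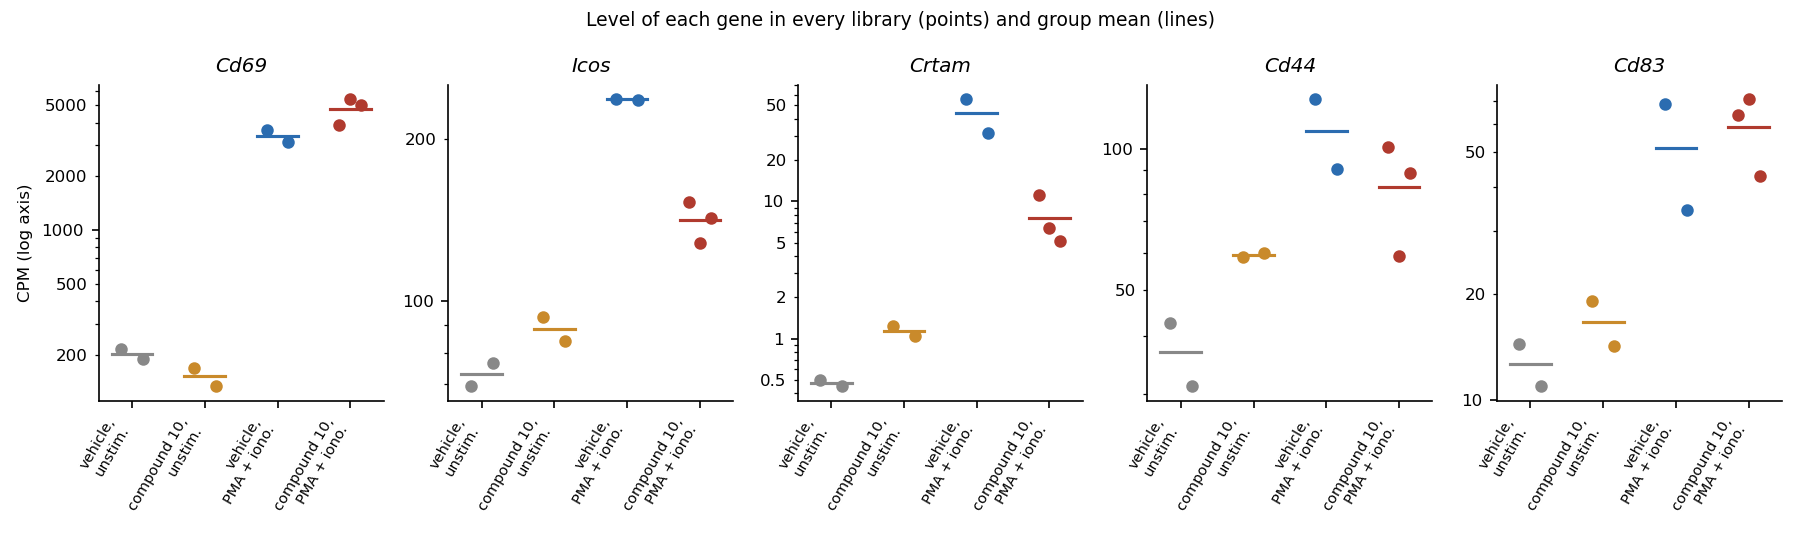
CPM on a log axis for each of the 5 genes in the 9 libraries; points are libraries, colours are the 4 groups and lines are group means. Icos and Crtam of the 3 stimulated compound 10 libraries lie below both stimulated vehicle libraries, while Cd69 lies above both and Cd44 and Cd83 overlap.

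**Figure D2:**
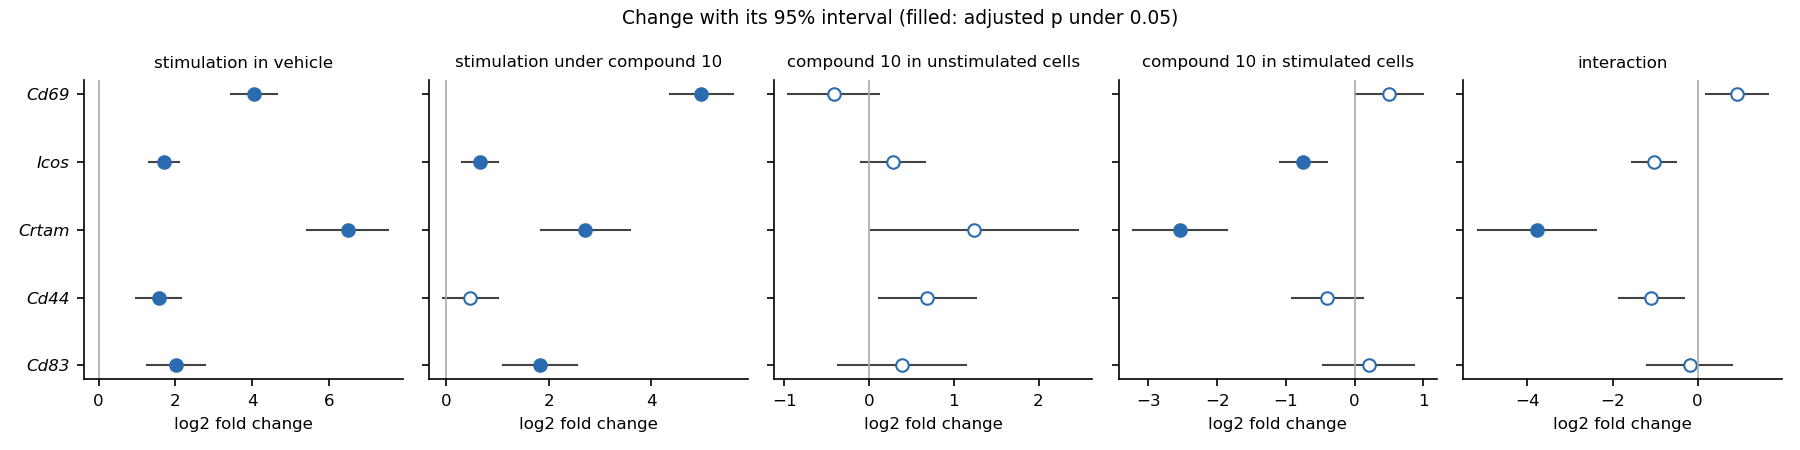
Log2 fold changes of the 5 genes in the 5 comparisons, with 95% intervals from edgeR's fit; filled points had an adjusted p under 0.05. All 5 are filled for stimulation in vehicle, and Icos and Crtam are the filled points for compound 10 in stimulated cells.

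Cd69 (chr6:129267325-129275436, minus strand, GRCm38) was the most abundant of the 5 in every group. Before stimulation it stood at 217 and 190 CPM in vehicle and at 170 and 134 CPM with compound 10. In stimulated vehicle it reached 3636 and 3129 CPM, and in stimulated compound 10 it reached 3891, 5427 and 5001 CPM. No 2 of the groups compared overlapped in CPM: the compound libraries were the lower ones before stimulation and the higher ones after it. Stimulation raised Cd69 by 4.06 (log2, SE 0.28, adjusted p = 1.4e-06) in vehicle and by 4.97 (SE 0.28, adjusted p = 3.3e-07) under compound 10. The difference between compound 10 and vehicle did not pass after adjustment in stimulated cells (log2 0.50, 95% interval 0.0033 to 0.99, adjusted p = 0.143) or in unstimulated cells (-0.42, interval -0.95 to 0.12, adjusted p = 0.352). The interaction was 0.91 (SE 0.34, adjusted p = 0.225), so unequal effects in the 2 states were not shown. Between libraries of the same number, the difference in stimulated cells was 0.098 for number 1 and 0.79 for number 2. As TPM, the stimulated groups overlapped (2111 and 1731 in vehicle, 2105, 3232 and 2442 with compound 10). The unstimulated groups overlapped too (184 and 107 TPM in vehicle, 114 and 100.1 with compound 10).

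Among the 3 listed partners of Cd69, S1pr1, the receptor for sphingosine 1-phosphate that Cd69 protein displaces, moved the opposite way. It fell by 3.82 (log2, SE 0.26, adjusted p = 1.5e-06) with stimulation in vehicle, from 139 and 210 CPM to 10.4 and 14.3 CPM. In stimulated compound 10 it stood at 49.0, 59.7 and 59.6 CPM, all above stimulated vehicle (log2 2.18, SE 0.24, adjusted p = 0.00011). Stimulated cells with compound 10 thus held 4.54-fold more S1pr1 transcript than vehicle. Their Cd69 CPM lay above that of vehicle in each library, but the Cd69 difference was not called and the groups overlapped as TPM. Klf2, a transcription factor that drives S1pr1, fell with stimulation in vehicle (-1.94, adjusted p = 0.00043) and under compound 10 (-1.74, adjusted p = 0.00047). Its difference between compound 10 and vehicle in stimulated cells was -0.16 (SE 0.26, adjusted p = 0.709). Slc7a5, an amino acid transporter chain whose complex Cd69 can bind, was not called in any of the 5 comparisons.

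Icos (chr1:60977927-61000320, plus strand) changed less than Cd69 with stimulation and was lower with compound 10 after it. Unstimulated vehicle libraries held 69.4 and 76.6 CPM, and unstimulated libraries with compound 10 held 93.2 and 84.1 CPM. In stimulated vehicle the levels were 237.0 and 236.0 CPM, and in stimulated compound 10 they were 152, 128 and 143 CPM. The stimulated compound libraries lay between the unstimulated and the stimulated vehicle libraries, with no overlap. In stimulated cells compound 10 lowered Icos by 0.75 on the log2 scale (log2 fold change -0.75, SE 0.16, adjusted p = 0.0049). Libraries of the same number differed by -0.64 (number 1) and -0.88 (number 2). Without the vehicle libraries rich in ribosomal RNA, which left library 1 alone in stimulated vehicle, the change was -0.75. The call was lost with limma on log2(TPM + 1), where the change was -0.68 (adjusted p = 0.106); TPM is a level scaled by transcript length.

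Stimulation raised Icos by 1.70 (log2, SE 0.18, adjusted p = 3.2e-05) in vehicle and by 0.67 (SE 0.16, adjusted p = 0.011) under compound 10. The second of these calls was lost without unstimulated compound 10 library 1 (0.75, adjusted p = 0.061) or library 2 (0.59, adjusted p = 0.130) and on TPM (0.35, adjusted p = 0.370). In unstimulated cells the difference by compound was 0.28 (interval -0.10 to 0.66, adjusted p = 0.383). The interaction of -1.03 (SE 0.24) had an adjusted p of 0.067. It passed with DESeq2 (adjusted p = 0.0031), with no filter on low counts (0.039), with a stricter filter (0.032) and without stimulated compound 10 library 2 (0.044).

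The tables hold 2 Icos transcripts, which share 3 exons and the start of exon 4 and then part. Icos-202 has 5 exons and 600 coding bases (200 codons), and Icos-201 reads on past the exon 4 end of Icos-202 and has 669 coding bases (223 codons). The 2 forms thus encode different last residues of the part of the receptor that lies inside the cell. The ends of both coding sequences are printed to show where they part (GRCm38, chromosome 1, plus strand, 5′ to 3′). The last 30 shared bases (chr1:60995579-60995608) are in lower case and the bases of each form alone in capitals, 80 at chr1:60995609-60995688 for Icos-201 and 11 at chr1:60997701-60997711 for Icos-202, both up to the stop codon.
Icos-201: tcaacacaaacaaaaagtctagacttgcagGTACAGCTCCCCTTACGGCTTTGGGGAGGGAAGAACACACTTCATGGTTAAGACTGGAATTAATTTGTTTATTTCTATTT
Icos-202: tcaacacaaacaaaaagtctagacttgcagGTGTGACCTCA

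Icos-202 was estimated at 20.4 TPM (SD 4.55, n = 2) in vehicle and 25.2 (SD 0.717, n = 2) in compound 10 before stimulation, 54.8 (SD 2.91, n = 2) in vehicle after stimulation and 30.0 (SD 3.44, n = 3) in stimulated compound 10. Icos-201 was estimated at 17.1 (SD 2.44), 20.3 (SD 2.10), 39.2 (SD 2.10) and 28.2 (SD 4.79) TPM in the same order. Both forms were thus lower in each stimulated compound 10 library than in either stimulated vehicle library. Icos-202 made up 54.2%, 55.4%, 58.3% and 51.6% of Icos TPM in the 4 groups, and the share in stimulated cells overlapped between compound 10 (46.5% to 58.4%) and vehicle (56.4% to 60.1%). These shares are kallisto's division of shared reads and were not tested.

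**Figure D3:**
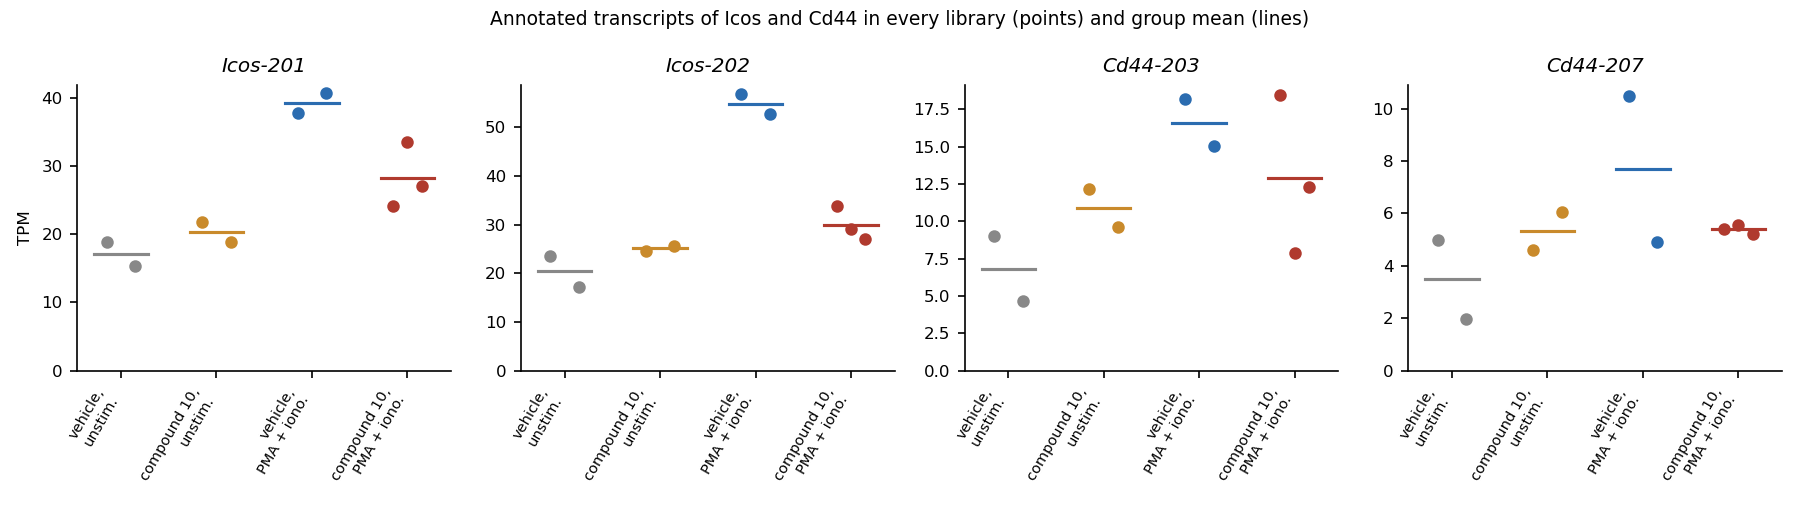
TPM (linear axes from 0) of the leading annotated transcripts of Icos and Cd44 in the 9 libraries; points are libraries and lines group means. Icos-201 and Icos-202 are both lower in the 3 stimulated compound 10 libraries than in the 2 stimulated vehicle libraries, and the Cd44 forms overlap there.

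All 7 listed partners of Icos were tested, and in stimulated cells compound 10 raised 1 and lowered 1, shares near the 11.7% and 11.4% of all genes. Icosl, the ligand, was higher (log2 1.71, SE 0.49, adjusted p = 0.024) at 19 to 55 counts a library against 14 and 15 in vehicle. It was also higher in unstimulated cells (2.14, SE 0.51, adjusted p = 0.026). Both Icosl calls were lost without either of the 2 vehicle libraries of the comparison, among others. Tbk1, a kinase that binds the Icos tail, was lower in stimulated cells (-0.99, SE 0.19, adjusted p = 0.0029). Of the RNA-binding proteins that degrade Icos mRNA, Zc3h12a (Regnase-1) rose with stimulation in vehicle (2.71, SE 0.26, adjusted p = 1.8e-05). Zc3h12a was also called higher with stimulation under compound 10 (2.98), from 16.3 CPM (SD 0.988, n = 2) to 128 CPM (SD 31.3, n = 3). Rc3h1 and Rc3h2 (Roquin-1 and -2) were not called in any comparison. Pik3cd and Pik3r1, subunits of the PI3-kinase that Icos recruits, were not called by compound in stimulated cells (log2 0.81, adjusted p = 0.159, and 0.30, adjusted p = 0.174).

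Crtam (chr9:40969691-41004628, minus strand) had the largest fold change of the 5 in 4 of the 5 comparisons, the exception being stimulation under compound 10. It was near the limit of detection before stimulation, at 0.504 and 0.452 CPM in vehicle (7 counts in each library) and 1.23 and 1.05 CPM in compound 10 (19 counts in each). Stimulated vehicle held 55.8 and 31.6 CPM (1069 and 527 counts). Stimulated compound 10 held 11.1, 6.38 and 5.15 CPM (138, 98 and 59 counts). Every stimulated compound 10 library was below both stimulated vehicle libraries and above all 4 unstimulated ones.

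In stimulated cells compound 10 changed Crtam by -2.54 (log2, SE 0.31, adjusted p = 0.00024), to 17.2% of vehicle. Libraries of the same number differed by -2.32 (number 1) and -2.28 (number 2), and the call held under each of the 20 alternatives run (-2.92 to -2.06, adjusted p at most 0.0038). Without both vehicle libraries rich in ribosomal RNA, which left library 1 alone in stimulated vehicle, the change was -2.89. Stimulation raised Crtam by 6.49 (SE 0.48, adjusted p = 2.9e-06) in vehicle and by 2.72 (SE 0.40, adjusted p = 0.00057) under compound 10, or 90.2-fold and 6.57-fold. With so few counts before stimulation the size of both folds is less certain than the counts after it. In unstimulated cells the change was 1.24 (interval 0.02 to 2.46, adjusted p = 0.213).

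The interaction of Crtam was -3.78 (SE 0.64, adjusted p = 0.018), the largest of the 5. The call ended when vehicle library 1 (adjusted p = 0.077) or 2 (0.105) of the unstimulated cells was left out, without unstimulated compound 10 library 1 (0.110) or 2 (0.082), and without stimulated vehicle library 1 (0.059). The call was also lost on TPM (-2.63, adjusted p = 0.051). Without both vehicle libraries numbered 2, which left vehicle library 1 alone in each state, the interaction was -4.06. The direction was lower in each. Natural killer cells can carry Crtam too, and of 6 tested natural killer markers 4 were called higher and none lower with compound 10 in stimulated cells. Of all genes 11.7% were called higher and 11.4% lower there. Eomes is 1 of the 6 and was not called (log2 -1.09, adjusted p = 0.064). The summed levels are given above, and their part in the Crtam result was not tested.

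Of 4 Crtam transcripts in the tables, Crtam-202 (393 codons) took 93.6% and 95.9% of Crtam TPM in stimulated vehicle and 91.3% to 100% in stimulated compound 10. Its sequence in the tables was 1938 bases long, against 5046 in the annotation, so reads from the rest of the 3′ end were not counted and the level of Crtam relative to other genes is uncertain. Of the partners of Crtam, Cadm1, its ligand, had at most 9 counts in a library and was not tested. Scrib, a polarity protein that Crtam engages, was not called in any comparison. Eomes, a T-box factor linked to Crtam in cytotoxic CD4+ cells, rose with stimulation in vehicle (log2 1.61, SE 0.44, adjusted p = 0.018). In stimulated cells its difference by compound was -1.09 (SE 0.39, adjusted p = 0.064). Leaving out unstimulated vehicle library 2 ended the Eomes call (adjusted p = 0.134), as did leaving out library 1 of stimulated vehicle (0.109).

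Cd44 (chr2:102811141-102901665, minus strand) stood, without stimulation, at 42.6 and 31.2 CPM in vehicle and 58.9 and 59.9 CPM with compound 10. In stimulated vehicle it was at 128 and 90.6 CPM, and in stimulated compound 10 at 101, 58.9 and 88.9 CPM. The unstimulated groups did not overlap, compound 10 being higher, while the stimulated groups overlapped. Stimulation raised Cd44 by 1.56 (log2, SE 0.27, adjusted p = 0.0011) in vehicle. Under compound 10 the change was 0.48 (interval -0.05 to 1.00, adjusted p = 0.189), and it passed without stimulated compound 10 library 2 (0.68, adjusted p = 0.029). Libraries of the same number differed by 0.77 (number 1) and -0.02 (number 2) there.

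The compound's effect on Cd44 was 0.69 (SE 0.26, adjusted p = 0.143) in unstimulated and -0.40 (interval -0.91 to 0.12, adjusted p = 0.264) in stimulated cells. The first passed with no filter on low counts (adjusted p = 0.041), in a fit of the 2 groups alone (0.040) and without stimulated compound 10 library 2 (0.043). The interaction was -1.09 (SE 0.35, adjusted p = 0.170) and passed with no filter on low counts (adjusted p = 0.021). Cd44 thus went from 36.9 to 109 CPM (group means; SD 8.01 and 26.1, n = 2 each) in vehicle and from 59.4 to 82.8 CPM (SD 0.733, n = 2, and 21.5, n = 3) in compound 10.

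Cd44 is known for variant exons that lengthen its stem outside the cell. Of the 9 transcripts in the tables, Cd44-203, with 9 exons and none of the variant ones, took 61.1%, 62.2%, 65.0% and 65.7% of Cd44 TPM (unstimulated vehicle, unstimulated compound 10, stimulated vehicle, stimulated compound 10). Cd44-207 took 29.9%, 30.1%, 28.8% and 29.7%. It has 5 coding exons (636 bases) that Cd44-203 lacks. It also has 1406 more bases of 3′ untranslated sequence and a longer first exon (398 against 243 bases). The estimates do not say which of these drew the reads. The shares of both forms overlapped between all groups compared.

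Of 12 listed partners of Cd44, 8 were tested. In stimulated cells compound 10 lowered 1, the sheddase Adam17 (log2 -0.59, SE 0.19, adjusted p = 0.037), a call lost in most alternatives (for example 0.147 without stimulated vehicle library 2); 1 of 8 is near the 11.4% of all genes called lower. Srgn, the core of serglycin, a proteoglycan ligand of Cd44, rose by 3.34 (SE 0.28, adjusted p = 4.8e-06) with stimulation in vehicle and by 3.46 (SE 0.27, adjusted p = 4.3e-06) under compound 10. Ezr and Rdx, which tie Cd44 to actin, rose with stimulation in vehicle (0.86, adjusted p = 0.013, and 0.51, adjusted p = 0.048). Their relative Msn was not called in any comparison. The Ezr call ended when unstimulated vehicle library 2 (adjusted p = 0.116) or library 1 of stimulated vehicle (0.090) was left out, and the Rdx call without any of 8 of the 9 libraries.

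Cd83 (chr13:43784775-43803132, plus strand) stood, without stimulation, at 14.4 and 11.0 CPM in vehicle and 19.0 and 14.3 CPM with compound 10. In stimulated vehicle it was at 68.3 and 34.5 CPM, and in stimulated compound 10 at 63.9, 70.8 and 42.9 CPM. Both stimulated groups lay above both unstimulated ones, and compound 10 and vehicle overlapped in each state. Stimulation raised Cd83 by 2.02 (log2, SE 0.35, adjusted p = 0.0015) in vehicle and by 1.83 (SE 0.32, adjusted p = 0.0024) under compound 10. The compound's effect was 0.20 (interval -0.46 to 0.86, adjusted p = 0.692) in stimulated and 0.39 (interval -0.36 to 1.15, adjusted p = 0.551) in unstimulated cells. In stimulated cells its sign turned without stimulated vehicle library 2 (-0.21, adjusted p = 0.720), and libraries of the same number differed by -0.097 and 1.03. The interaction was -0.19 (interval -1.19 to 0.81, adjusted p = 0.910), and its sign turned with a replicate block (0.07) and without unstimulated compound 10 library 1 (0.03) or stimulated vehicle library 1 (0.39).

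Of the 5 genes listed with Cd83, H2-Ab1, H2-Aa and Cd86 were tested, and March1 and March8 were too low. H2-Aa was called once, higher with stimulation under compound 10 (log2 1.41, SE 0.40, adjusted p = 0.037), and lost the call without any of 4 libraries. These 3 genes are carried by B cells and dendritic cells, and their part in the small B cell signal was not tested.

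Levels were compared between genes as TPM, which is scaled by length. In both unstimulated groups and in stimulated vehicle the order was Cd69, Icos, Cd44, Cd83, Crtam. Stimulated vehicle held 1921 TPM of Cd69 (SD 269, n = 2), 93.9 of Icos (SD 0.807), 25.9 of Cd44 (SD 6.16), 21.5 of Cd83 (SD 10.7) and 20.5 of Crtam (SD 8.54), and the last 3 overlapped. Stimulated compound 10 held 2593 TPM of Cd69 (SD 578, n = 3), 58.2 of Icos (SD 4.19), 23.9 of Cd83 (SD 7.97), 19.1 of Cd44 (SD 5.16) and 3.41 of Crtam (SD 1.51), where Cd83 and Cd44 overlapped and Crtam lay below both. Crtam thus stood beside Cd44 and Cd83 in stimulated vehicle and apart from them in stimulated compound 10. The sequences used were shorter than the annotated ones for Crtam-202 (1938 against 5046 bases), Cd83 (2143 against 2477) and Cd69 (1621 against 1687). Levels of these genes relative to others are therefore less certain, most of all for Crtam. In unstimulated vehicle the values ran from 146 TPM of Cd69 (SD 54.1, n = 2) to 0.320 of Crtam (SD 0.157), with Cd44 and Cd83 overlapping.

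A list of 24 other surface genes of activated T cells (chosen with earlier results of these data known) gives the setting, and 23 of them were tested. Stimulation raised 17 in vehicle and 18 under compound 10 and lowered none, where 14.4% and 11.0% of all genes were called higher. In stimulated cells compound 10 raised 3 and lowered 6, with a median log2 change of -0.26 beside 0.0019 over all genes. Of all genes 11.7% were called higher and 11.4% lower there, so the 3 of 23 raised are near the background. In unstimulated cells it raised 2 and lowered 2, beside 4.45% and 2.91% of all genes. The 4 with the smallest p in stimulated cells were Cd160, Il2ra, Tnfsf14 and Icam1. Cd160, a receptor of the immunoglobulin family, stood at 55.5 and 35.3 CPM in stimulated vehicle and 8.65, 6.38 and 6.55 CPM in stimulated compound 10 (log2 -2.66, SE 0.24, adjusted p = 3.4e-05). Its levels in these 5 libraries were close to those of Crtam. Il2ra, the high-affinity chain of the interleukin 2 receptor, fell from 192 and 185 CPM to 47.0, 33.0 and 44.6 CPM (-2.18, SE 0.21, adjusted p = 5.5e-05). Tnfsf14, the ligand LIGHT, fell from 62.6 and 57.4 CPM to 17.1, 11.3 and 12.3 CPM (-2.14, SE 0.24, adjusted p = 0.00012). Icam1, the ligand of the integrin LFA-1, went the other way, from 78.0 and 80.6 CPM to 250.1, 198 and 185 CPM (1.41, SE 0.20, adjusted p = 0.00051). The remaining 5 called genes, named after their values were seen, were Tnfrsf9, Ly6a and Cd200 (lower) and Cd28 and Cd5 (higher). Of these, Ly6a, Cd28 and Cd5 lost the call without stimulated vehicle library 2 and Cd200 without library 1.

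**Figure D4:**
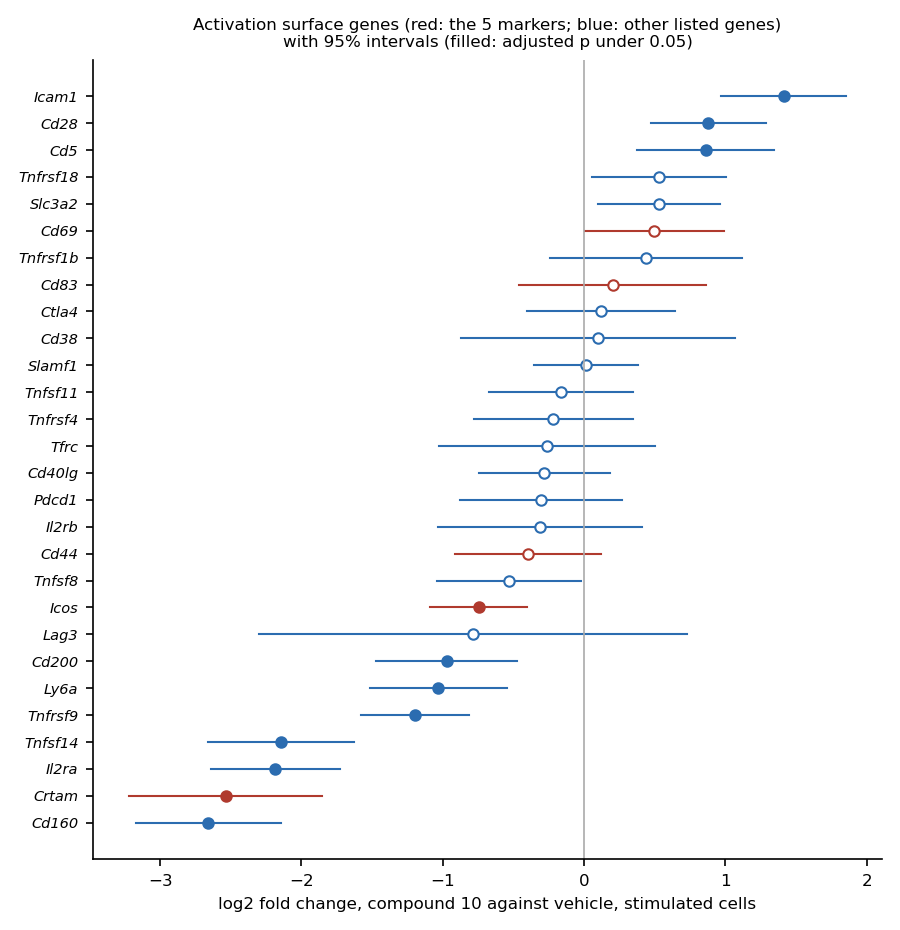
Log2 fold change of compound 10 against vehicle in stimulated cells, with 95% intervals, for the 5 markers (red) and 23 other activation surface genes (blue), in order of their change; filled points had an adjusted p under 0.05. Crtam lies at the low end beside Cd160, Il2ra and Tnfsf14, Icos lies among the milder decreases, and Cd69 lies on the other side of 0.

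Neighbouring genes were read within 300 kb of each marker. Icos shares a cluster with its relatives Cd28 and Ctla4, 205 and 62.1 kb away, and the 3 genes differed in their response to compound 10. Before stimulation Cd28 stood at 65.8 and 70.2 CPM in vehicle and at 114 and 132 CPM with compound 10. After stimulation it stood at 145 and 169 CPM in vehicle and at 243 to 331 CPM with compound 10. Compound 10 raised Cd28 by 0.86 (log2, SE 0.20, adjusted p = 0.026) in unstimulated and by 0.88 (SE 0.19, adjusted p = 0.0051) in stimulated cells. The unstimulated call was lost without any 1 of its 4 libraries (adjusted p 0.083 to 0.192) and the stimulated call without stimulated vehicle library 2 (0.057). Ctla4, an inhibitory receptor, rose with stimulation by 2.24 in vehicle (SE 0.28, adjusted p = 0.00012) and by 2.18 under compound 10 (SE 0.26, adjusted p = 0.00013). Its difference by compound in stimulated cells was 0.12 (interval -0.41 to 0.65, adjusted p = 0.779). In stimulated cells Cd28 was therefore called higher and Icos lower with compound 10, and Ctla4 was not called.

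Of 2 tested neighbours of Crtam, Ubash3b, 6.47 kb away and named after its values were seen, was lower with compound 10 in stimulated cells. Of all genes tested 11.4% were called lower and 11.7% higher there. Ubash3b, a phosphatase that dampens T cell receptor signalling, stood at 91.9 CPM (SD 16.6, n = 2) in stimulated vehicle and 17.2 CPM (SD 0.457, n = 3) in stimulated compound 10 (log2 -2.41, SE 0.20, adjusted p = 2.5e-05). In unstimulated vehicle and compound 10 it stood at 10.6 CPM (SD 3.28, n = 2) and 11.3 CPM (SD 0.216, n = 2). Stimulation raised it by 3.12 in vehicle (SE 0.24, adjusted p = 2.8e-06), and its interaction was -2.51 (SE 0.31, adjusted p = 0.0031). The adjacent genes Crtam and Ubash3b thus shared the direction of each of these 3 changes. The interaction contains the compound's effect in stimulated cells, so these changes are not independent. Stimulation under compound 10 was called for Crtam but not for Ubash3b (0.61, SE 0.21, adjusted p = 0.057). In unstimulated cells compound 10 was called for neither gene (Ubash3b 0.10, SE 0.23, adjusted p = 0.857). The second neighbour, the chaperone gene Hspa8, was not called by compound in stimulated cells (0.32, SE 0.23, adjusted p = 0.349).

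Among 5 tested neighbours of Cd69, compound 10 lowered 1 in stimulated cells, where 11.4% of all genes were called lower and 11.7% higher. This was Olr1, a lectin receptor named after its values were seen. Olr1 went from 4.84 CPM (SD 0.989, n = 2) to 1.25 CPM (SD 0.271, n = 3, log2 -1.94, adjusted p = 0.0073). Among 2 tested neighbours of Cd44 compound 10 raised 1, Apip, also named after its values were seen (0.98, SE 0.32, adjusted p = 0.043). Apip stood at 13.2 CPM (SD 1.51, n = 2) in stimulated vehicle and 26.1 CPM (SD 11.7, n = 3) in stimulated compound 10. The calls of Ubash3b, Olr1 and Apip were not followed under the alternatives. The 1 tested neighbour of Cd83, Mcur1, was not called in any of the 5 comparisons.

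The genes with the profile most like each marker were found by the root mean square distance of centred log2 CPM over the 9 libraries, among 4873 or 4874 genes of mean log2 CPM of at least 4. This is a description without a test. Cd69 was closest to Slamf1 (distance 0.30, against a median of 2.26 over all genes), Nr4a1 (0.32) and Nr4a2 (0.35). Icos was closest to Mak16 (0.11, median 0.68), Polr1c (0.13) and Tdg (0.14). Crtam was closest to Xcl1, a chemokine gene (0.32, median 2.24), Il2ra (0.67) and Slc41a1 (0.84). Crtam itself and Cd160 lay below the cut on the mean level, so Cd160 was not among the genes searched. Xcl1 had a change of -1.94 with compound 10 in stimulated cells and 5.72 with stimulation in vehicle, beside -2.54 and 6.49 for Crtam. The same changes were -2.18 and 4.55 for Il2ra and -0.43 and 4.61 for Slc41a1. These genes were picked by their profile in the same libraries, so likeness in these changes is no separate evidence. Cd44 was closest to AI506816 (0.19, median 0.67), Rcn2 (0.21) and D10Wsu102e (0.21), and Cd83 to Lmna (0.22, median 1.03) and Hspa5 (0.23).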

How the data were processed

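RNA of 9 libraries was extracted with Qiagen kits and made into libraries with Clontech SMART-seq, per the labels' protocols. The tools were cutadapt and kallisto and the build mm10, per the submitters' processing notes; versions are not given in the sources used. Each library has 1 table with an estimated count per transcript, which the authors deposited unscaled, per the file headers. The same tables carry TPM (adjusted for effective length, with equal sums in all libraries) and transcript lengths, as deposited.

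Of 109617 transcripts, 108214 matched GENCODE M21 (GRCm38) without the version of the identifier and 63964 with it; 0.542% to 0.829% of the counts fell on the others. Sums per gene were rounded. Genes were filtered with filterByExpr and scaled by TMM, and 1 model held the 9 libraries with a mean per group (4 groups, from the sample titles). The quasi-likelihood test of edgeR 4.0.16, run in R 4.3.3 with robust glmQLFit and 2-sided glmQLFTest, gave p-values, adjusted by Benjamini and Hochberg over 14011 genes and called under 0.05. The SE was taken as the size of the log2 fold change divided by the root of F, and intervals are 95%. The biological coefficient of variation was 0.244. The fit was checked on simulated counts in which few genes changed. These counts held no difference in ribosomal RNA content and no effect of library number, so the check does not cover them. Alternatives used DESeq2 1.42.0, limma 3.58.1 on log2(TPM + 1), other scalings and filters, effective lengths as offset, versioned transcripts, a replicate block and fits without 1 library.

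The 5 markers and all lists were chosen with earlier results of these data known. Named were the 5 markers, the 4 other surface genes with the smallest p for compound 10 in stimulated cells, tested partners, Cd28 and Ctla4 as neighbours, and the 3 genes of most similar profile; others are said to be named after their values were seen. A gene that the rule named for Cd83 and a marker of another cell type are not reported here. Reference bases come from the GRCm38 transcripts of GENCODE M21.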

Additional observations from a re-analysis of the deposited data

Results flagged for a closer look

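For 6 genes among the markers, the other listed surface genes and the listed partners, the effect of compound 10 differed between stimulated and unstimulated cells. The test was that of the interaction itself (edgeR, adjusted over 14011 genes). The interaction, as log2, was -3.78 for Crtam (adjusted p = 0.018), -3.41 for Cd160 (0.0031), -2.17 for Tnfsf14 (0.040), -1.91 for Il2ra (0.020), 1.78 for Icam1 (0.016) and 2.09 for S1pr1 (0.014). In the first 4 the effect of compound 10 was lower in stimulated than in unstimulated cells, and in Icam1 and S1pr1 it was higher. Ubash3b, a neighbour of Crtam outside these lists, also had a called interaction (-2.51, adjusted p = 0.0031). The Cd160 call was kept under each alternative run apart from versioned transcripts only (adjusted p = 0.071). The other 5 of the 6 lost their call in several, among them the fit without both vehicle libraries rich in ribosomal RNA. That fit keeps vehicle library 1 alone in each state. With the replicate block the calls of Il2ra (adjusted p = 0.077), Tnfsf14 (0.116) and S1pr1 (0.067) were lost. No group held enough libraries for a test of single libraries that stand apart.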

How the results depend on the processing

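Of 505 values of the 5 markers under alternatives, 477 kept their direction and side of the threshold, 13 lost a call, 9 gained one and 6 moved; no called value changed sign. Among the 5 markers, the count called for compound 10 in stimulated cells (2) was 1 on TPM. In unstimulated cells (0) it was 1 with no filter on low counts, 1 with only the groups compared, and 0 to 1 when a library was left out. The interaction count (1) was 3 with no filter, 2 with a stricter filter, 2 with DESeq2, 0 on TPM, 0 without both vehicle libraries numbered 2 (an alternative chosen after seeing the data), and 0 to 2 when a library was left out. With versioned transcripts only, which leave counts for Icos and Cd44 alone among the markers, the counts were 1 for compound 10 in stimulated cells, 1 for stimulation in vehicle, 0 under compound 10 and 0 for the interaction. For the other surface genes they were 2 (of 9), 0 (of 4, unstimulated), 11 (of 17), 10 (of 18) and 0 (of 4). The other surface genes called in unstimulated cells were 2 on TPM and 2 to 4 when a library was left out. Their interaction count was 1 on TPM, 2 with the effective length offset, 1 without both vehicle libraries, and 1 to 4 when a library was left out. The replicate block left the counts of markers as they were and gave 2 interaction calls among the other surface genes (Il2ra and Tnfsf14 lost; S1pr1, a partner of Cd69, lost its call too). Deviations of same-numbered libraries correlated from -0.10 to 0.33 between pairs of groups. The third principal component (8.94% of the variance) put each library numbered 1 lower than its group's number 2. The labels do not say what a number marks, so the block stayed an alternative, and a shared source of same-numbered libraries was not settled. As a share of estimated counts, Icos-202 made up 85.4% in place of 54.5% and Cd44-203 50.2% in place of 63.7%, since longer transcripts draw more counts. On TPM the median log2 change of all genes went from -0.05 to -0.17 for stimulation in vehicle and from 0.0036 to -0.21 under compound 10, and with upper-quartile scaling from 0.01 to 0.12 for the interaction. The split of all genes into higher and lower calls there was 978 and 1672 (mainly 2011 and 1929), 595 and 1745 (mainly 1542 and 1510) and 81 and 65 (mainly 59 and 85). No marker changed direction with these settings. For compound 10 in stimulated cells, upper-quartile scaling moved the median from 0.0019 to 0.09. The split there became 1981 higher and 1337 lower (mainly 1639 and 1595). When a library was left out, the counts of all genes called ran from 876 to 1538 higher and 975 to 1637 lower for compound 10 in stimulated cells, 112 to 886 and 62 to 571 in unstimulated cells, 1338 to 2382 and 1087 to 1965 for stimulation in vehicle, 760 to 1619 and 709 to 1534 under compound 10, and 12 to 101 and 17 to 163 for the interaction. In each comparison of 2 groups the lowest counts arose without 1 library of a group compared that had 2. Before stimulation, 7 counts of Crtam a library limit its folds.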
